A study of Mus musculus with 6 samples.

Results

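A set of 10 genes that cells are known to switch on under stress were followed in mouse back skin: the sestrins Sesn1 and Sesn2, the DDIT4 pair Ddit4 and Ddit4l, the polo-like kinases Plk2 and Plk3, the GADD45 genes Gadd45a, Gadd45b and Gadd45g, and the antiproliferative gene Btg2. They were chosen by symbol, as the probes on the array that carry one of these 10 gene names and are not control spots. Each gene had 1 such probe, and all 10 were among the 24354 targets that were bright enough to be tested. A further probe that is described as Gadd45a but carries another gene name was left out. The study compared skin of C57BL/6 male mice aged 6 to 8 weeks, with 3 mice in each group. The 3 arrays of a group were taken as 1 per mouse, which is inferred from the equal numbers of mice and arrays. In both groups the hair of the back was shaved. From 2 days later the UVB group was anesthetized and received 180 mJ/cm2 of UVB on the back, 3 times a week for 2 weeks, whereas the control group was kept dark and received none. The labels used here give neither the time from the last exposure to sampling nor whether the controls were anesthetized.

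The products of these genes act as brakes on growth and as adaptors of stress signalling. Sestrins and DDIT4 (REDD1) dampen mTORC1, the kinase complex that couples nutrients to protein synthesis, the sestrins through the GATOR complexes and DDIT4 through the TSC proteins. GADD45 proteins bind the kinase MAP3K4 upstream of p38 and JNK, PLK2 and PLK3 are polo-like kinases induced by stress and growth signals, and BTG2 recruits the CCR4-NOT deadenylase to messenger RNA. Several of the genes are known targets of p53, the factor activated by DNA damage, which UVB causes in skin by linking neighbouring pyrimidines. Ddit4 also answers to hypoxia and glucocorticoids, and Sesn2 to ATF4, the factor of the integrated stress response.

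The arrays held 62976 spots each, of which 54.9% to 63.3% were well above background and 0 were saturated. Levels are log2 values of the processed signal relative to the 75th percentile of the same array. That percentile was 363, 519 and 484 in controls 1 to 3 and 352, 315 and 302 in UVB mice 1 to 3, so the UVB arrays were dimmer before scaling. Basal keratinocyte markers (Krt5, Krt14, Col17a1 and Itga6) were all measured, with a summed log2 level of 10.32 to 10.62 in controls and 10.31 to 10.46 after UVB. That sum follows its brightest members, and 2 of the 4 were lower after UVB, Col17a1 by a log2 difference of -0.48 (limma adjusted p = 0.0406) and Itga6 by -0.61 (0.0251). Markers of other cell types differed between the groups. Of 8 markers of the hair shaft and inner root sheath, 7 were higher after UVB. The 8 had a summed log2 level of 4.08 to 4.35 in controls and 8.10 to 10.05 after UVB. Krt33b, 1 of the 7, was well above background in no control and entered the test only through the UVB mice. Of 5 melanocyte markers, 4 were higher, with 1.40 to 1.56 against 4.07 to 4.69. Of 5 fibroblast markers tested, 3 were higher, with 2.26 to 3.50 against 4.04 to 4.61, and of 4 suprabasal keratinocyte markers 2 were higher, with 10.25 to 10.58 against 10.94 to 11.25. All 4 measured T cell markers were lower, with 3.83 to 4.23 against 2.74 to 3.11, and of 4 measured macrophage markers 2 were lower and 1 higher, with 4.2 to 4.33 against 2.47 to 3.05. Adipocyte markers stood at -0.77 to 1.04 against 2.61 to 4.82, with 1 of 5 higher and 1 lower. This summed rise follows Fabp4, which was higher by 4.80 (limma adjusted p = 0.0158). Cidec, the marker called lower, was not well above background in any UVB mouse. It entered the test only through the controls, where it was high, so its call is a description and not a test. Lep, Cfd and Retn were not called. For skeletal muscle, limma called 0 of 9 markers (2 lower at an unadjusted p under 0.05), and for endothelium 0 of 2 (0 at that level). Adipoq, Plin1, Pdgfra, Cdh5, Tek, Emcn, Ckm, Mylpf and Cd68 had no probe bright enough to be tested, and Trac had no probe under that name. The lists rest on their remaining markers. The part of these cell types in the results below was not tested, and in RNA from skin fewer cells of a type cannot be told apart from less RNA per cell.

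Ddit4l, Plk3 and Gadd45b were higher after UVB, none of the 10 genes was lower, and the other 7 did not pass the test. The test was limma across all 24354 targets, and a call means a Benjamini-Hochberg adjusted p under 0.05. Over all targets 5.55% were called higher and 7.01% lower, against 3 and 0 of the 10 genes. In 7 of the 10 genes the 3 UVB mice lay above all 3 controls, where 15.9% of all targets did so, and in 0 genes below them, where 22.6% did. Groups that did not overlap in either direction were found for 38.5% of all targets. The median log2 difference, UVB minus control, was 0.48 over the 10 genes and -0.04 over all targets, and 10 of 10 differences were positive against 46.7% of all targets. These directions hold for values scaled to the 75th percentile, and their dependence on the scaling is given with the plot of changes by setting. All 10 probes were well above background on all 6 arrays.

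**Figure D1:**
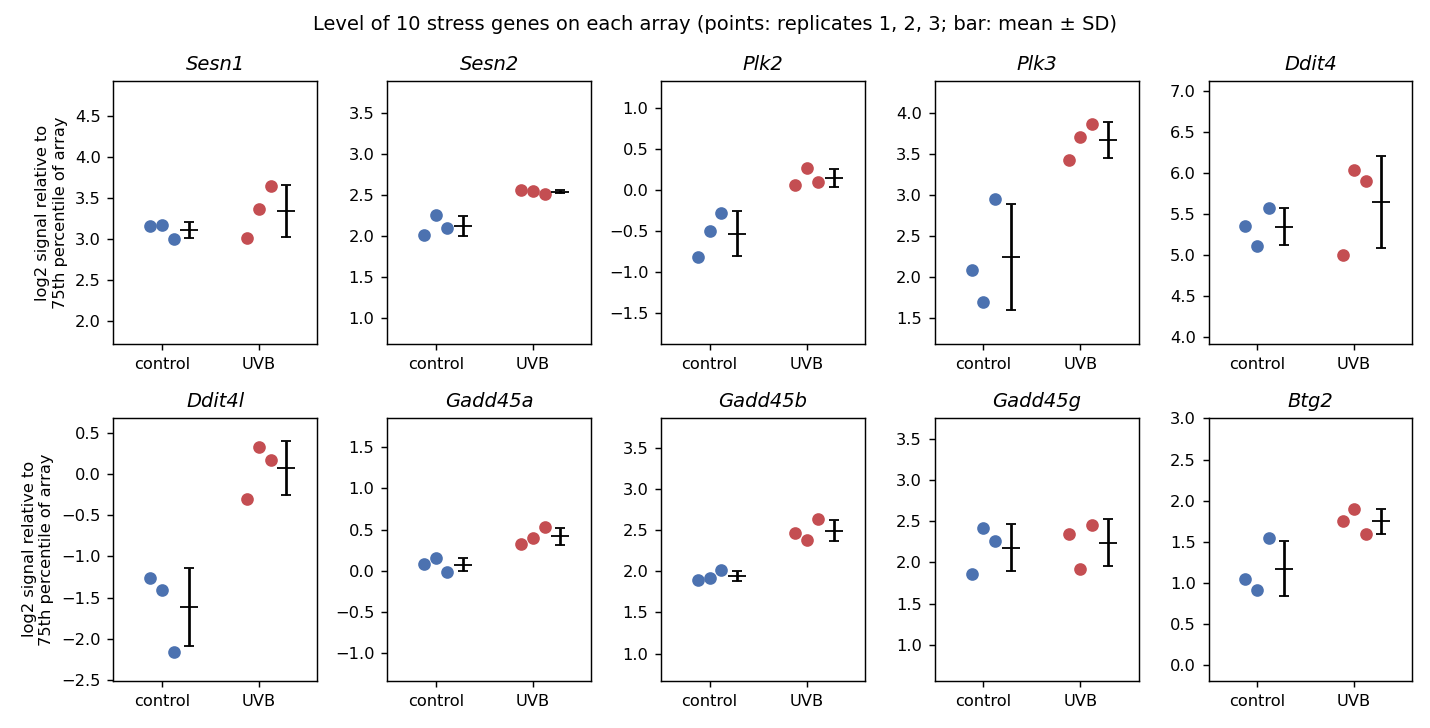
Log2 level of each of the 10 genes relative to the 75th percentile of the array, with 1 point per mouse for 3 control and 3 UVB mice and a bar at each group mean. The UVB points lie above all control points for 7 genes and overlap with them for Sesn1, Ddit4 and Gadd45g.

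Ddit4l, which encodes the REDD2 relative of DDIT4 and likewise inhibits mTORC1, had the largest change of the 10 genes. Its log2 level was -1.27, -1.41 and -2.16 in controls 1 to 3 and -0.30, 0.33 and 0.18 in UVB mice 1 to 3. All UVB mice lay above all controls, and control 3 was the lowest of the 6. The level rose by 1.68 ± 0.28 (SE, n = 3 per group, 95% interval 0.99 to 2.37), which is 3.21-fold, with a limma adjusted p of 0.0178. This placed it at rank 669 of 24354 targets by size of change. The call was lost without control 2 (adjusted p = 0.0569 in limma) and without UVB mouse 2 (0.0537), while the change stayed between 1.41 and 1.87 whichever mouse was left out. The probe lies on chromosome 3 at 137290927 to 137290986 of mm9, on the plus strand.

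Ddit4 itself gave no call. Its log2 level was 5.36, 5.12 and 5.57 in controls and 5.0, 6.03 and 5.91 in UVB mice. UVB mouse 1 was the lowest of all 6 and UVB mice 2 and 3 were the highest, so the groups overlapped. The difference was 0.30 ± 0.30 (SE, 95% interval -0.42 to 1.02), with a limma adjusted p of 0.536. Without UVB mouse 1 the difference was 0.62 with an adjusted p of 0.117. Its probe lies on chromosome 10 at 59412486 to 59412545 of mm9, on the minus strand.

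Plk3, a polo-like kinase that responds to DNA damage and cellular stress, also rose. Controls 1 to 3 stood at log2 levels of 2.08, 1.70 and 2.95, and the UVB mice at 3.43, 3.70 and 3.86. The groups did not overlap, and control 3 stood 0.87 above the next control. The level rose by 1.42 ± 0.33 (SE, n = 3 per group, 95% interval 0.63 to 2.21), which is 2.68-fold, with a limma adjusted p of 0.0399. Without control 3 the rise was 1.77 with an adjusted p of 0.0141 in limma, and leaving out any other mouse ended the call, with adjusted p from 0.0887 to 0.109 and a change of 1.15 to 1.54. Its probe lies on chromosome 4 at 116801317 to 116801376 of mm9, on the minus strand.

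Plk2, a polo-like kinase of centriole duplication and, in neurons, of synaptic scaling, fell just outside the threshold. Its log2 level was -0.82, -0.50 and -0.28 in controls and 0.06, 0.27 and 0.10 in UVB mice. The groups did not overlap, and the gap from the highest control to the lowest UVB mouse was 0.33. The difference was 0.67 ± 0.17 (SE, 95% interval 0.26 to 1.08), with a limma adjusted p of 0.0517. The probe for Plk2 lies on chromosome 13 at 111190915 to 111190974 of mm9, on the plus strand. Just inside the threshold stood Plk3 at 0.0399 and just outside it Plk2 at 0.0517, followed by Sesn2 at 0.0660.

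Among the GADD45 genes, Gadd45b rose, Gadd45a did not pass the test although its groups did not overlap, and Gadd45g overlapped. All 3 encode small acidic adaptors of MAP3K4. Gadd45b had log2 levels of 1.90, 1.92 and 2.01 in controls and 2.46, 2.38 and 2.64 in UVB mice, so every UVB mouse lay above every control and the controls were tightly grouped. The level rose by 0.55 ± 0.12 (SE, n = 3 per group, 95% interval 0.26 to 0.85), which is 1.47-fold, with a limma adjusted p of 0.0361. The call was lost whichever mouse was left out (adjusted p 0.0581 to 0.133 in limma, change 0.48 to 0.61) and with scaling to the array median (0.45, adjusted p 0.0977). Of 17 alternative settings it was lost in 10, against 8 for Plk3 and 3 for Ddit4l.

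Gadd45a, a gene induced by p53 after DNA damage, had log2 levels of 0.09, 0.15 and -0.01 in controls and 0.32, 0.40 and 0.53 in UVB mice. The UVB mice again lay above all controls, by a small margin. The difference was 0.34 ± 0.12 (SE, 95% interval 0.05 to 0.63), with a limma adjusted p of 0.110. For Gadd45g the controls stood at 1.86, 2.42 and 2.26 and the UVB mice at 2.34, 1.92 and 2.46, with both groups spread over the same range. The difference was 0.06 ± 0.21 (SE, 95% interval -0.45 to 0.57, limma adjusted p = 0.867), and its sign turned with median scaling (-0.04) and without control 1 (-0.10) or UVB mouse 3 (-0.04). In mm9 the probe for Gadd45a lies on chromosome 6 at 66985376 to 66985435 on the minus strand, that for Gadd45b on chromosome 10 at 80394367 to 80394426 on the plus strand and that for Gadd45g on chromosome 13 at 51943733 to 51943792 on the plus strand.

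Neither sestrin passed the test. Sesn2, a leucine sensor of the mTORC1 pathway, had log2 levels of 2.02, 2.25 and 2.10 in controls and 2.56, 2.55 and 2.52 in UVB mice. The groups did not overlap and the UVB mice were nearly equal. The difference was 0.42 ± 0.12 (SE, 95% interval 0.14 to 0.70), with a limma adjusted p of 0.0660. Sesn1 stood at 3.16, 3.17 and 3.00 in controls and at 3.02, 3.36 and 3.64 in UVB mice. UVB mouse 1 lay within the range of the controls and the other UVB mice lay above it. The difference for Sesn1 was 0.23 ± 0.18 (SE, 95% interval -0.21 to 0.67), with a limma adjusted p of 0.430. In mm9 the probe for Sesn1 lies on chromosome 10 at 41628012 to 41628071 on the plus strand, and that for Sesn2 on chromosome 4 at 132048858 to 132048917 on the minus strand.

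Btg2, which slows the cell cycle and speeds the removal of poly(A) tails, had log2 levels of 1.05, 0.92 and 1.55 in controls and 1.76, 1.90 and 1.60 in UVB mice. The groups were separated by only 0.05, between control 3 and UVB mouse 3. The difference was 0.58 ± 0.20 (SE, 95% interval 0.10 to 1.05), with a limma adjusted p of 0.104. Its probe lies on chromosome 1 at 135972094 to 135972153 of mm9, on the minus strand. As a check on single genes, an exact permutation test of 3 against 3 mice gave its smallest possible p of 0.1 for each of the 7 genes without overlap, 0.3 for Sesn1, 0.5 for Ddit4 and 0.7 for Gadd45g.

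**Figure D2:**
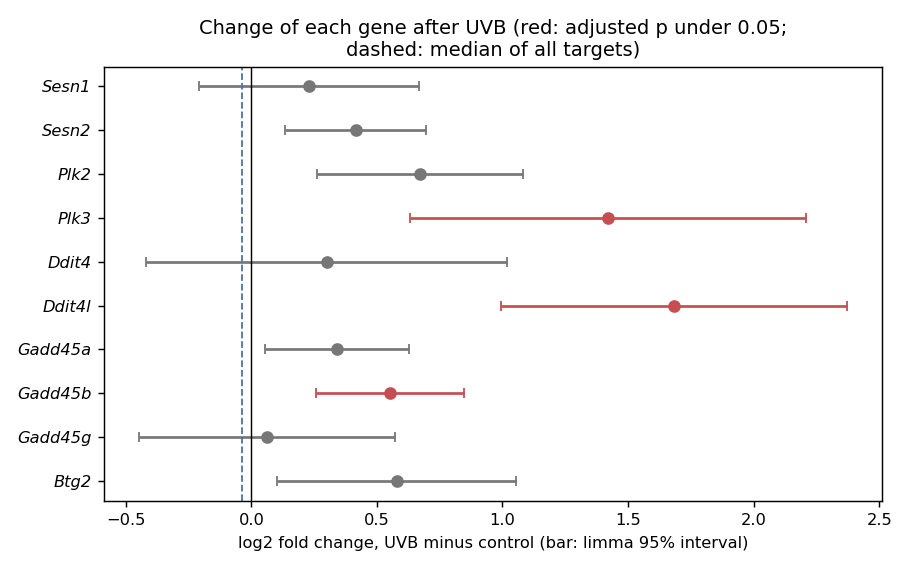
Log2 difference of UVB minus control for each of the 10 genes, with its 95% interval from limma (3 mice per group). Ddit4l at 1.68, Plk3 at 1.42 and Gadd45b at 0.55 passed an adjusted p under 0.05, and the intervals of Sesn1, Ddit4 and Gadd45g include 0.

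Relatives within a family were set against each other by taking, in each mouse, the log2 level of 1 gene minus that of the other. In all, 6 pairs were compared. The difference of Ddit4l minus Ddit4 shifted by 1.38 ± 0.41 (SE) from control to UVB, that of Plk3 minus Plk2 by 0.75 ± 0.32, and that of Gadd45g minus Gadd45b by -0.49 ± 0.18. In these 3 pairs the mice of the groups did not overlap. The exact permutation test gave p = 0.1 for each, the smallest it can give, and 0.2 after adjustment over the 6 pairs, so none passed. The shift was 0.21 ± 0.09 for Gadd45b minus Gadd45a (exact p = 0.2), 0.19 ± 0.21 for Sesn2 minus Sesn1 (exact p = 0.4) and -0.28 ± 0.22 for Gadd45g minus Gadd45a (exact p = 0.3), with overlapping mice in all of them.

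**Figure D3:**
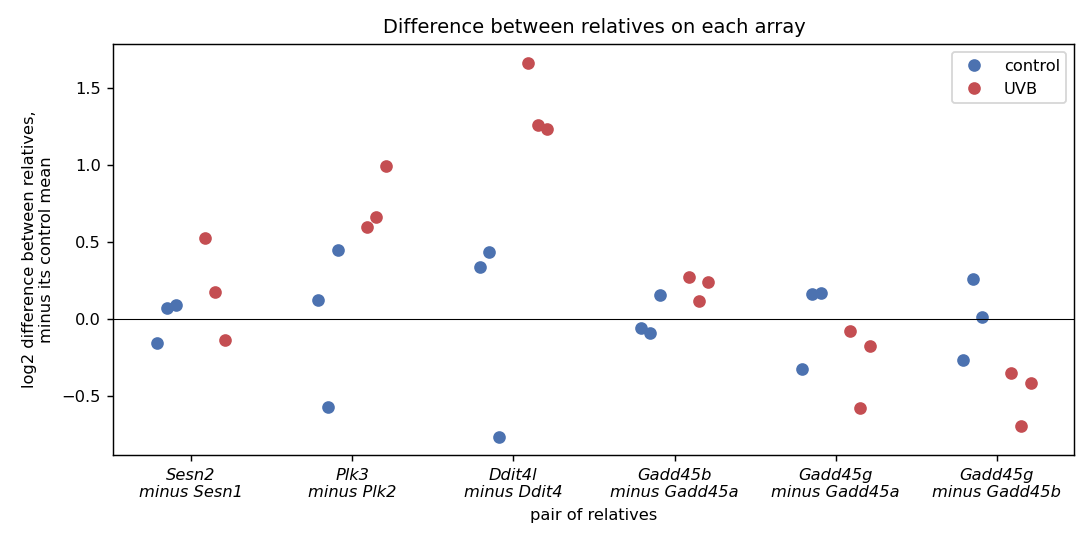
Log2 level of a gene minus that of its relative in each mouse, for 6 pairs, with 1 point per control or UVB mouse. The UVB mice lie above the controls for Ddit4l minus Ddit4 and Plk3 minus Plk2, below them for Gadd45g minus Gadd45b, and overlap in the other 3 pairs.

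The promoters of the 3 called genes, and of Gadd45g as the uncalled relative of Gadd45b, are shown with matches to short motifs. Binding was not measured, and sequence outside these windows was not searched. Each sequence holds the 250 bases before the RefSeq start of the gene, from build GRCm38.p6: Plk3 at chr4:117133964-117134213 on the minus strand, Ddit4l at chr3:137623422-137623671 on the plus strand, Gadd45b at chr10:80929841-80930090 on the plus strand and Gadd45g at chr13:51846425-51846674 on the plus strand. They run 5′ to 3′, and capitals mark matches on either strand to the p53 decamer motif, ACGTG (the core of the hypoxia element), TGATGNAA (the ATF4 composite element), TGACGTCA (the cyclic AMP element) or TATAAA (the TATA box).
Plk3: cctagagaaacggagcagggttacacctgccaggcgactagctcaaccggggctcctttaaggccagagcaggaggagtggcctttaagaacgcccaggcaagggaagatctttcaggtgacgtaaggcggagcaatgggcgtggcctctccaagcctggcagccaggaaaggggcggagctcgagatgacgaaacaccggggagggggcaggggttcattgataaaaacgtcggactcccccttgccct
Ddit4l: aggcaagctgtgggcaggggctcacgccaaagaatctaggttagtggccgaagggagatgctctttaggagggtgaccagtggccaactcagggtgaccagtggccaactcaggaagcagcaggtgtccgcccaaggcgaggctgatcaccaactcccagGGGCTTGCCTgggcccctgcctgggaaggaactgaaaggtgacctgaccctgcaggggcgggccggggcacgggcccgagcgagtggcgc
Gadd45b: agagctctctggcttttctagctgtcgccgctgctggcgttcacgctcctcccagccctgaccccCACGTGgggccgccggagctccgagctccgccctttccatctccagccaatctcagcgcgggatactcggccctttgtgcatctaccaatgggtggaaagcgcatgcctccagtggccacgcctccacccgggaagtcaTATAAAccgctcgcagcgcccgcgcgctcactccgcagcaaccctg
Gadd45g: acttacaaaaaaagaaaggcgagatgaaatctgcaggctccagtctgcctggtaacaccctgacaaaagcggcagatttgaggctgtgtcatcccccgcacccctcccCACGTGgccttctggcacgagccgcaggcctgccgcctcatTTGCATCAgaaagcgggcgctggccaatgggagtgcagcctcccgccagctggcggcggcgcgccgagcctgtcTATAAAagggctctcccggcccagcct

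A match of this kind is a description of the letters and not a bound site. Of 11 promoters of the 10 genes (Sesn1 has a pair of them), 3 hold the p53 decamer, which is a part of a p53 site. They are those of Ddit4l, Gadd45a and the second promoter of Sesn1, against 7.13% of all 32851 mouse promoters of this length. ACGTG is in 4, those of Plk2, Ddit4, Gadd45b and Gadd45g, against 16.6% of all. The matches in Gadd45b and Gadd45g are on both strands of 1 CACGTG palindrome in each. TGACGTCA is in 2, Plk2 and Btg2, against 1.55%, TATAAA in 2, Gadd45b and Gadd45g, against 12.4%, and TGATGNAA in 1, Gadd45g, against 3.45%. The printed Plk3 window and that of Sesn2 hold none of the 5. Gadd45b, which rose, and Gadd45g, which gave no call, thus share the CACGTG and TATAAA letters. The GC content of the 11 windows was 59.2% to 73.2%, and the median over all promoters was 52.4%.

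Family relatives that are not among the 10 genes moved in part. Of 10 such genes 3 were higher and 0 lower, against 5.55% and 7.01% of all targets, with a median log2 difference of 0.14. Plk5 is 1 of the 3, and its call is a description for the reason given below. The UVB mice lay above all controls for 3 of them and below all controls for 4, where 15.9% and 22.6% of all targets did so. Those below were Plk1, Plk4, Tob2 and Gadd45gip1, none of which was called. Sesn3, the third sestrin, rose by 0.73 ± 0.12 (SE, limma adjusted p = 0.0165), from -0.40, -0.62 and -0.47 in controls to 0.18, 0.20 and 0.32 in UVB mice. Tob1, an antiproliferative relative of Btg2, rose by 0.98 ± 0.16 (limma adjusted p = 0.0160). Plk5 was well above background in no control and in all UVB mice. It entered the test only through the UVB mice, where it was high, so its call is a description and not a test. The level of Plk5 was at least 2.72-fold higher after UVB. That bound sets the mean of the UVB mice against the mean, over controls, of the higher of the probe's own signal and the lowest signal well above background. Plk1, the mitotic polo-like kinase, differed by -0.70 ± 0.24 and did not pass (limma adjusted p = 0.107). The number of relatives called higher fell to 1 without control 2 or UVB mouse 1 and to 2 without control 1. Where 1 was left, it was Plk5.

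Among p53 targets other than the 10 genes, 8 of 20 tested were higher and 0 lower, against 5.55% and 7.01% of all targets, with a median log2 difference of 0.49 against -0.04. This and the other lists were chosen with earlier results of these data known, so such shares are a description and not a test. Ccng1, cyclin G1, rose by 1.39 ± 0.17 (limma adjusted p = 0.00708), with controls at 1.18, 1.32 and 1.06 and UVB mice at 2.38, 2.87 and 2.49. Aen, an apoptosis-enhancing nuclease, rose by 1.04 ± 0.14 (0.00942), Psrc1, a spindle protein, by 0.76 ± 0.11 (0.0131) and Trp53inp1, a p53-induced nuclear protein, by 1.26 ± 0.23 (0.0211). The best-known targets gave smaller differences on their brightest probes. For Cdkn1a, the cell cycle inhibitor p21, the difference was 0.48 ± 0.17 (limma adjusted p = 0.115), and for Mdm2, the ubiquitin ligase of p53, it was 0.39 ± 0.12 (0.0851). Cdkn1a rests on its probe: the mean of its 3 tested probes differed by 2.00 with a limma adjusted p of 0.00196. The p53 targets called higher numbered 4, 2 and 6 without controls 1, 2 and 3, and 3, 5 and 6 without UVB mice 1, 2 and 3. Over all targets these same omissions left 864, 468 and 957 and 515, 859 and 843 called higher.

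The pathways that these genes act on were read in the same way. Of 34 tested genes of mTORC1 and its amino acid and stress inputs, 2 were higher and 2 lower, with a median log2 difference of -0.21. These counts are near the 5.55% and 7.01% of all targets. The UVB mice lay below all controls for 17 of the 34 and above them for 6, where 22.6% and 15.9% of all targets did so, and 9 were lower and 4 higher at an unadjusted p under 0.05, where 18% and 13.5% of all targets were. The higher ones were Slc38a9, a lysosomal arginine sensor, by 0.74 ± 0.12 (limma adjusted p = 0.0155), and Castor2, of the cytosolic arginine sensor family, by 0.70 ± 0.14 (0.0258). Itfg2, of the KICSTOR complex, fell by 0.61 ± 0.11 (0.0242), and Seh1l, of GATOR2 and the nuclear pore, fell by 0.55 ± 0.11 (0.0297). In the p38 and JNK cascade 1 of 14 was called, Mapk13 (p38 delta), which rose by 0.99 ± 0.20 (limma adjusted p = 0.0289). Map3k4, the partner of the GADD45 proteins, differed by -0.40 ± 0.12 and did not pass (0.0801). Of 11 CCR4-NOT genes, the deadenylase Cnot6l rose by 0.71 ± 0.12 (limma adjusted p = 0.0177) and Cnot9 fell by 0.58 ± 0.14 (0.0439). The shares called in these lists, too, are near those over all targets. With 1 mouse left out, the calls numbered 0 to 2 higher and 0 to 1 lower for mTORC1, 0 to 1 higher for the kinase cascade, and 0 to 1 higher and 0 lower for CCR4-NOT.

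Genes of the other inputs to this set were mixed. Of 17 tested ATF4 targets, 2 were higher and 0 lower, against 5.55% and 7.01% of all targets, with a median log2 difference of -0.17. The UVB mice lay above all controls for 2 of them and below for 4, where 15.9% and 22.6% of all targets did so. Trib3, a pseudokinase, rose by 1.12 ± 0.14 (limma adjusted p = 0.00708) and Vldlr, a lipoprotein receptor, by 0.72 ± 0.11 (0.0140). Atf4 itself differed by -0.08 ± 0.10 (limma adjusted p = 0.656). Of 12 hypoxia targets 3 were higher and 1 lower, against the same 5.55% and 7.01%, with a median of 0.27. The UVB mice lay above all controls for 6 of the 12 and below them for 1, against 15.9% and 22.6% of all targets. Egln3, a prolyl hydroxylase, rose by 1.27 ± 0.14 (limma adjusted p = 0.00571) and Ankrd37 by 1.85 ± 0.24 (0.00832), while Car9, a carbonic anhydrase, fell by 1.33 ± 0.14 (0.00533). Vegfa differed by 0.84 ± 0.27 and did not pass (limma adjusted p = 0.0890). Of 8 glucocorticoid targets, limma called 0 higher and 0 lower, with 0 and 1 at an unadjusted p under 0.05, and Tsc22d3 (GILZ) differed by -0.18 ± 0.40 (adjusted p = 0.797).

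Of 17 immediate early genes tested, 0 were higher, 3 were lower and 14 were not called, against 5.55% higher and 7.01% lower over all targets. Their median log2 difference was -0.65, and Jun (0.42), Ier5 (0.29) and Egr3 (0.14) had positive differences that did not pass. The nuclear receptor Nr4a1 had log2 levels of 3.45, 2.06 and 4.73 in controls and 0.43, 1.05 and 0.44 in UVB mice, and it fell by 2.77 ± 0.64 (SE, limma adjusted p = 0.0406). Nr4a2 fell by 2.51 ± 0.53 (0.0314) and the zinc finger factor Egr1 by 0.88 ± 0.21 (0.0422). The call of Nr4a2 rests on its brightest probe: the mean of its 2 tested probes differed by -1.89 with a limma adjusted p of 0.0683. For Fos the difference was -0.91 ± 0.43 with overlapping mice (limma adjusted p = 0.207). The number called lower was 3 without control 2, 2 without control 3, and 0 without control 1 or any UVB mouse. In 14 of the 17 genes control 3 was the highest control, as it was for 5 of the 10 stress genes and for 31% of all targets.

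**Figure D4:**
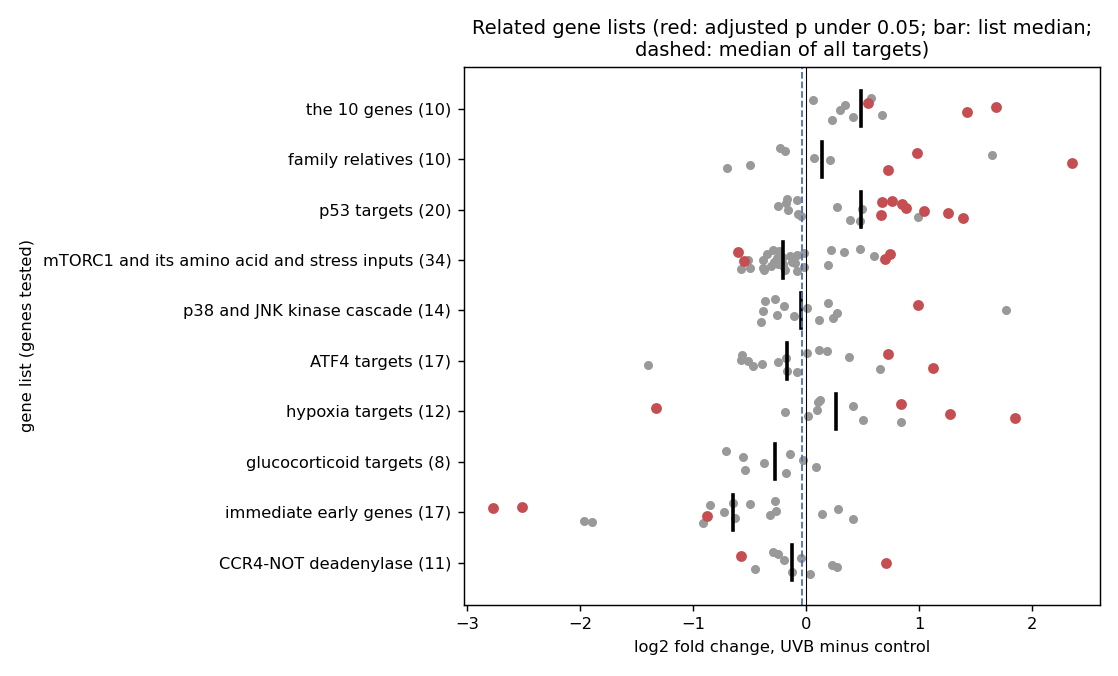
Log2 difference of UVB minus control for each tested gene of the 10 stress genes and of the related lists, with 1 point per gene, called genes coloured and a bar at the median of each list. The median is 0.48 for the 10 genes and 0.49 for other p53 targets, and -0.65 for immediate early genes. Plk5 is drawn at its fitted value.

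The size and partly the direction of these changes depend on how the arrays are scaled. With quantile normalization or in the authors' deposited table of log2 values, the direction of all 10 differences was kept and 4 genes were called higher, Sesn2 being the added one (limma adjusted p = 0.0383 and 0.0406). With each array's median in place of its 75th percentile 2 were called, Ddit4l and Plk3. Without any scaling the median of all targets moved to -0.52, and 1 gene was called, Ddit4l, with a rise of 1.20 (limma adjusted p = 0.0163). Plk3 then differed by 0.94 (0.0618) and Gadd45b by 0.07 (0.830). Without scaling Sesn1 (-0.25), Sesn2 (-0.07), Ddit4 (-0.18), Gadd45a (-0.14) and Gadd45g (-0.42) turned negative, which is still above the median of all targets. In the unscaled signal only 2 of the 10 genes separated the groups: Plk3, with 1533 to 3736 in controls and 3787 to 4393 after UVB, and Ddit4l, with 108.5 to 194.9 and 286.3 to 395.7.

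**Figure D5:**
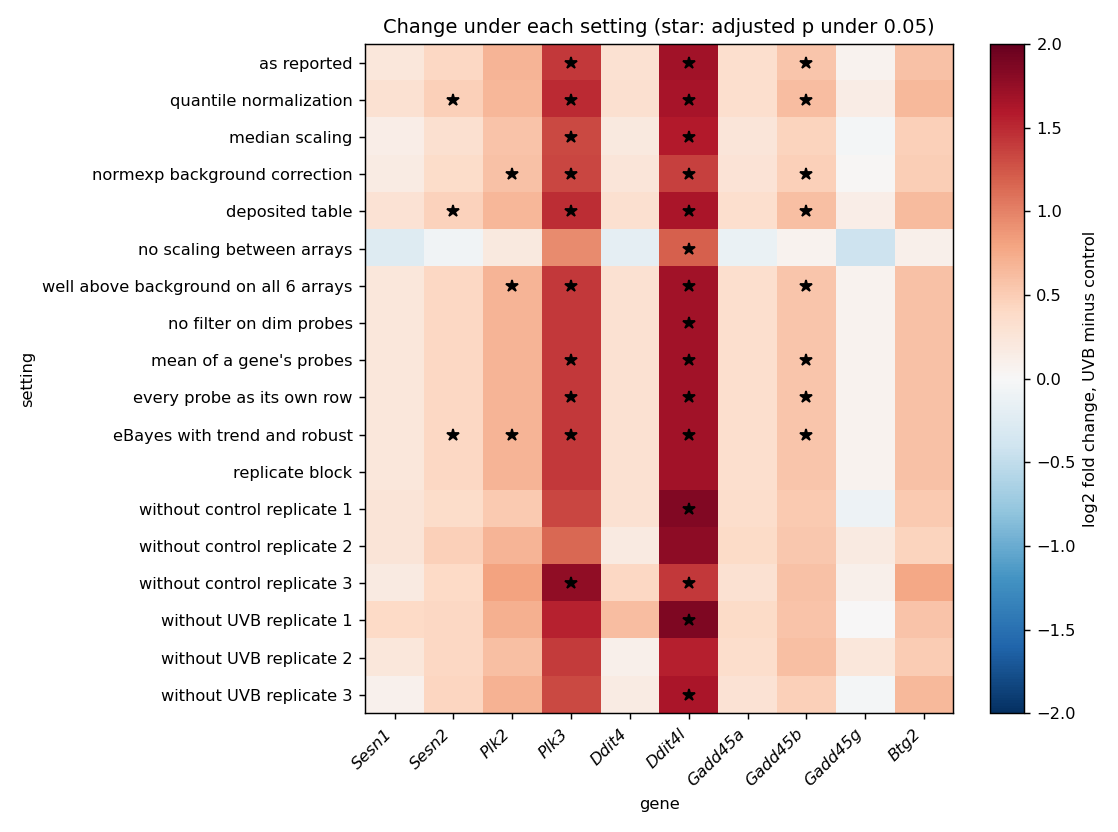
Log2 difference of UVB minus control for each of the 10 genes under each setting of scaling, background correction, filter and left-out mouse, coloured from lower to higher, with a mark where the gene passed an adjusted p under 0.05. Ddit4l keeps a positive difference of 1.20 to 1.87 in all settings shown, and without scaling Sesn1, Sesn2, Ddit4, Gadd45a and Gadd45g are negative.

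For each called gene, the most similar profiles over the 6 arrays were sought among 15920 named targets, by the root mean square difference of log2 levels centred on each gene's own mean. Nearest to Plk3 were Eid3 (0.128), Serpinb13 (0.131), a serpin of stratified epithelia, and Bpifb2 (0.136), where the median target stood at 0.889. Ddit4l was nearest to A930007A09Rik (0.148), Fxyd4 (0.181), a regulator of the sodium pump, and Azin2 (0.228), an antizyme inhibitor, against a median of 0.976. Gadd45b was nearest to Rnf149 (0.0272), Rc3h2 (0.0418) and Cited2 (0.0474), against 0.421. With 6 arrays in 2 groups, such likeness rests mostly on the difference between the groups.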

How the data were processed

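RNA from the back skin of 6 mice, starting from 0.2 µg each, was labelled with Cy3 and hybridised to 1-colour Agilent arrays. Groups and replicate numbers came from the sample titles. Each group held 3 mice per the labels, and its 3 arrays were taken as 1 per mouse. On that reading p-values measure the spread between mice, and the number of arrays limits the precision.

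The authors deposited scanner files with spot intensity values, extracted with Agilent Feature Extraction 10.7.1.1 per the submitters' processing notes. The processed intensity is not scaled between arrays. The authors also deposited a table of log2 values, used as an alternative. The sources used here do not give how it was made. Its 6 columns, sorted, were alike within 0.00212, each had a median of 4.948, and each correlated with the log2 intensity of the same array (r from 0.99866 to 0.99997), so its direction is that of the arrays and its centring is known only from this comparison. Sorted columns that are alike are what quantile normalization gives. The deposited table and the quantile setting are therefore not separate checks.

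The intensity was converted to log2 and centred on the 75th percentile of its array. Control spots and outlier flags (135 to 274 per array) were dropped and repeated spots averaged. Probes entered the test when well above background on 3 or more of the 6 arrays. A gene was represented by its brightest tested probe. Of 55681 probes, 26582 were named by accession and 3094 by symbol through RefSeq tables of GRCm38.p6, and 26005 kept the name in the files. Positions of probes were read from the scanner files and are in mm9. Probes never well above background had a median log2 level of -7.34 to -6.92 in controls and -6.77 to -6.42 after UVB, an offset that dim genes may share.

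The groups were compared with limma 3.58.1 under R 4.3.3, with the moderated two-sided test of eBayes and Benjamini-Hochberg adjustment over all targets, checked on simulated data. Slide and scan time were shared by all 6 arrays and could not be fitted as batches. Same-numbered mice did not deviate together (r = -0.108, -0.262 and -0.0792 across targets), so the numbers were not taken as pairs. Named were all 10 genes, the 3 called genes of smallest p in each list, 11 further genes regardless of call, and for each called gene the 3 most similar profiles. Map3k4, as the partner of the GADD45 proteins, and Seh1l, as the remaining call of its list, were named outside this rule after their values were seen. So were Plk4, Tob2, Gadd45gip1, Jun, Ier5, Egr3, Col17a1, Itga6, Krt33b, Fabp4, Cidec, Lep, Cfd and Retn, and the markers without a tested probe. The genes and lists were chosen with earlier results of these data known. Alternatives were the scaling, normexp background correction (offset 50), the deposited table, the filter, the probe rule, the variance model, the replicate block and leaving out each mouse. The fit with no scaling and that with every probe as a row were run after seeing the data.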

Additional observations from a re-analysis of the deposited data

How the results depend on the processing

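The number of stress genes called higher, 3 in the report, was 4 with normexp and 4 with the stricter filter, both adding Plk2, 1 with no filter on dim probes, 5 with eBayes trend and robust, 0 with the replicate block, 1 with no scaling, and 0 to 2 when 1 mouse was left out. None was called lower in any setting run. Over all targets, 1351 higher and 1707 lower in the report, the counts were 2547 higher with normexp, 1061 lower with no filter, 472 higher and 301 lower with the replicate block, 594 and 6112 without scaling, and 468 to 957 higher and 391 to 1064 lower when 1 mouse was left out. The share of calls that were higher was 44.2% in the report, 35.3% with median scaling, 50.6% with normexp and 8.86% without scaling. The median of all targets moved by -0.10 with median scaling, 0.12 with normexp and -0.48 without scaling. With the block, adjusted p was 0.0678 for Plk3, 0.0680 for Ddit4l and 0.106 for Gadd45b, and the numbers pair no samples. With no filter, more targets were tested and Plk3 (0.0607) and Gadd45b (0.0708) missed the threshold. Signs turned for Gadd45g with median scaling (-0.039), and with 1 mouse left out it ranged from -0.096 to 0.222, negative without control 1 or UVB mouse 3. Tsc22d3 ranged from -0.48 to 0.14 when 1 mouse was left out. Without scaling the values were -0.25 for Sesn1, -0.066 for Sesn2, -0.18 for Ddit4, -0.14 for Gadd45a, -0.42 for Gadd45g, -0.0035 for Cdkn1a and -0.095 for Mdm2. The cause of these changes was not tested, except that the unscaled values keep the dimmer UVB arrays by construction. Each target rests on 3 mice a group, and for the 10 genes on 1 probe each.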
